A study of Homo sapiens with 20 samples.

Results

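Accessible chromatin was compared between SW872 cells that expressed the fusion protein TAZ-CAMTA1 and SW872 cells that carried the empty vector (EV), as 2 lists of ATAC-seq peaks. A TAZ-CAMTA1 peak and an EV peak that overlapped by at least 1 bp were called shared. A TAZ-CAMTA1 peak was called gained when its summit −log10 p was 6 or more and no EV peak lay within 1 kb, and an EV peak was called lost by the same rule the other way. The TAZ-CAMTA1 list held 236893 peaks and the EV list 171102, together 407995 of the 1407450 peaks in the 7 lists of the series. There were 3098 gained peaks, or 1.31% of the TAZ-CAMTA1 list, and 49 lost peaks, or 0.0286% of the EV list.

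SW872 is an established human liposarcoma cell line. Every group was stably transduced with a retroviral vector that confers resistance to G418, and the EV cells carried the vector and the selection without an insert. TAZ-CAMTA1 and EV each had 3 libraries, from separate transductions per the study's methods, and the title of the third EV library says "redo". The other groups, used here only to ask which other lists hold the same sites, were the full-length fusion partners CAMTA1 (3 libraries) and TFE3 (2 libraries), the mutant coactivators TAZ4SA and YAP5SA (3 each), and the fusion YAP-TFE3 (3 libraries, whose titles name YAP5SA as its YAP part). The cells are stable pools of a line that did not arise from the tumour in which the fusion is found. Each vector had 1 deposited peak list, and no values per library were analysed, so the spread between libraries and the depth behind each list are unknown. No test of TAZ-CAMTA1 against EV across libraries could therefore be made, and the intervals below (95%, Wilson for shares and Newcombe for differences of shares) cover counting error only. They do not cover the variation between cultures or libraries.

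TAZ is a coactivator held in check by the Hippo pathway, and it reaches DNA through TEAD transcription factors. CAMTA1 is a calmodulin-binding transcription activator, and a fusion of the N-terminal part of TAZ to the C-terminal part of CAMTA1 is found in most cases of epithelioid hemangioendothelioma, a vascular sarcoma. ATAC-seq uses a transposase that cuts and tags DNA where nucleosomes and other proteins leave it exposed, so that a pile of fragment ends marks an open region such as a promoter or an enhancer. The comparison with EV asks which regions are called open in the presence of the fusion, and which open regions of the parental line are no longer called.

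Most of the EV landscape was present in the TAZ-CAMTA1 list. Of the EV peaks, 146451 (85.6%, interval 85.4 to 85.8%) overlapped a TAZ-CAMTA1 peak, and these held 95.6% of the bases covered by EV peaks. Of the TAZ-CAMTA1 peaks, 114920 (48.5%, 48.3 to 48.7%) overlapped an EV peak, and these held 81.9% of the covered bases. The TAZ-CAMTA1 list covered 113741751 bases and the EV list 70596855. The peaks that were neither shared, gained nor lost numbered 118875 for TAZ-CAMTA1 and 24602 for EV, and they were mostly weak and short, with median widths of 111 bp and 96 bp. The gained peaks covered 1270920 bases, 1.12% of the TAZ-CAMTA1 total, and the lost peaks 23317 bases, 0.0330% of the EV total.

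The gained peaks lay close to the limit that chose them. The summit value is the −log10 p at the peak's strongest position, and the area is the area under the curve of significance along the peak, both as the peak caller wrote them. Gained peaks had a median summit of 6.49 (quartiles 6.21 and 6.95, highest 11.3) and a median area of 481 (361 and 663, range 210 to 4924). Shared TAZ-CAMTA1 peaks had a median summit of 6.91 (5.02 and 10.1, highest 59.3) and a median area of 672 (204 and 2340). The shared peaks thus spanned a far broader range, and those of them with a summit of 6 or more had a median summit of 9.15 and a median area of 1710. Lost peaks had a median summit of 6.30 (6.15 and 6.55, highest 8.49) and a median area of 447 (374 and 640, highest 1899), against 8.29 and 1244 for shared EV peaks with a summit of 6 or more. Because the rule used the summit, and the area comes from the same curve, these values describe the sets and test nothing.

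Just inside the limits there were 379 gained peaks with a summit from 6.0 to 6.1, and just outside there were 445 TAZ-CAMTA1 peaks without an EV peak within 1 kb with a summit from 5.9 to under 6. The nearest EV peak lay 1001 to 1100 bp from 64 gained peaks, and 901 to 1000 bp from 53 TAZ-CAMTA1 peaks of 6 or more that were therefore not gained. For lost peaks, 7 had a summit from 6.0 to 6.1, and 4 EV peaks without a TAZ-CAMTA1 peak within 1 kb had a summit from 5.9 to under 6.

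Width was not part of the rule. Gained peaks had a median width of 370 bp (quartiles 218 and 541, range 105 to 2689) and lost peaks of 374 bp (254 and 524, range 156 to 1940). Since width grows with the summit, peaks of like summit were set side by side. Between 6 and 7, the 2382 gained peaks had a median width of 347 bp (205 and 496) and the 13839 shared TAZ-CAMTA1 peaks one of 418 bp (250 and 641). The 44 lost peaks in that range had a median of 359 bp and the 13220 shared EV peaks one of 389 bp. The medians of the gained and lost peaks were lower by less than their quartile ranges. Their summits within this range were lower as well, with medians of 6.35 for gained against 6.48 for shared TAZ-CAMTA1 peaks, and 6.22 for lost against 6.44 for shared EV peaks, and the part of that in the widths was not tested.

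**Figure D1:**
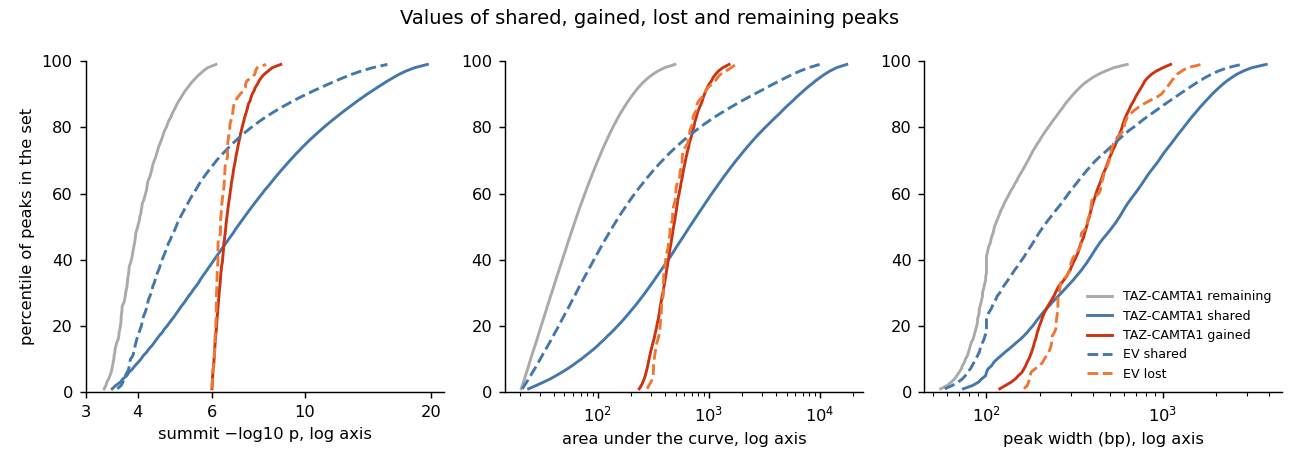
Percentiles of peaks (vertical axis) against summit −log10 p, area under the curve and width in bp (horizontal log axes) for shared, gained and remaining TAZ-CAMTA1 peaks and for shared and lost EV peaks. The gained and lost curves run close together and start at the limit of 6 that chose them, with medians of 6.49 and 6.30, while shared TAZ-CAMTA1 peaks reach much higher values.

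Gained peaks became rare as peaks became stronger. Of the 17444 TAZ-CAMTA1 peaks with a summit from 6 to 7, 2382 (13.7%, 13.2 to 14.2%) were gained. From 7 to 8 it was 587 of 12011 (4.89%), from 8 to 9 it was 106 of 9017 (1.18%), and from 9 to 10 it was 20 of 7184 (0.278%). At 10 or more it was 3 of 29146 (0.0103%), so that the strongest open regions of TAZ-CAMTA1 cells were nearly all regions where EV cells had a peak too. Lost peaks followed the same course at a lower level. They made up 44 of 13292 EV peaks from 6 to 7 (0.331%), 4 of 8312 from 7 to 8 and 1 of 5723 from 8 to 9. At 9 or more it was 0 of 19518, with an upper Wilson limit of 0.0197%.

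The 63.2 gained peaks for each lost peak depended on holding the lists to the same summit value. A summit of 6 or more was reached by 74802 TAZ-CAMTA1 peaks (31.6%) and by 46845 EV peaks (27.4%). When the EV limit was lowered to 4.92, the summit at which about as many EV as TAZ-CAMTA1 peaks pass, there were 499 lost peaks and 6.21 gained peaks for each. When the TAZ-CAMTA1 limit was instead raised to 7.86, at the rank of the EV limit, there were 161 gained peaks and 3.29 for each of the 49 lost. Gained peaks outnumbered lost peaks under each of these limits, and the size of the ratio moved with the limit.

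The shared peaks moved the same way. Pairs of 1 TAZ-CAMTA1 peak and 1 EV peak that overlapped each other and nothing else numbered 82949. Their median summit was 6.31 in TAZ-CAMTA1 and 4.84 in EV, with a median difference of 1.39 (quartiles 0.324 and 2.60), and TAZ-CAMTA1 was the higher in 82.7% of pairs. The area was higher by a median of 1.34 on the log2 scale (0.70 and 2.20), and the TAZ-CAMTA1 peak was the wider in 84.7% of pairs, with a median width of 383 bp against 196 bp.

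The difference in summit was present across the whole range of EV values. At an EV summit of 3 to 4 the median difference was 0.877, at 6 to 8 it was 2.16, and at 10 to 15 it was 3.02, with TAZ-CAMTA1 higher in 84.5%, 90.8% and 96.2% of pairs. The rise was not even. At an EV summit of 4 to 5, which held the most pairs (29567), the median difference was 0.822, its lower quartile was -0.03, and TAZ-CAMTA1 was higher in 74.1%. The share was 79.9% at 5 to 6 and 89.0% at 15 or more. The area was compared as a log2 ratio and the summit by subtraction, so their trends are not on the same scale. Median areas were 146 in TAZ-CAMTA1 and 29.7 in EV at an EV summit of 3 to 4. They were 13315 and 9071 at 15 or more. On the log2 scale the median difference in area was 2.25 at an EV summit of 3 to 4. It fell to 0.77 at 10 to 15 and 0.54 at 15 or more. Pairs were grouped by the EV summit, and the EV area comes from the same curve. Part of this fall is therefore set by the grouping. The difference thus extended to the strongest and widest peaks of the line. The values were not scaled between the lists. Peaks were also joined in the TAZ-CAMTA1 list. There, 26311 peaks overlapped 2 or more EV peaks, whereas 3375 EV peaks overlapped 2 or more TAZ-CAMTA1 peaks.

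**Figure D2:**
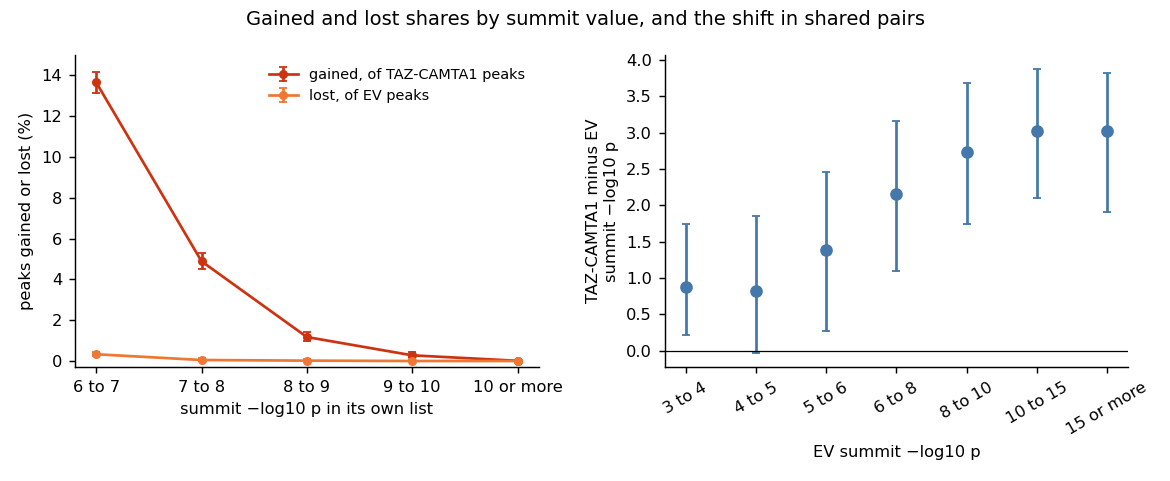
Left, the percent of TAZ-CAMTA1 peaks that were gained and of EV peaks that were lost by the peak's own summit −log10 p, with Wilson intervals, falling from 13.7% and 0.331% at 6 to 7. Right, the median difference in summit (bars span the quartiles) between TAZ-CAMTA1 and EV in 82949 shared pairs by EV summit, whose median lies above 0 in every bin and reaches 3.02 at 10 to 15.

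Changes in area of 2 times or more within the shared pairs were far more often rises than falls. The values were not scaled between the lists, and the median pair was already higher by 1.34 on the log2 scale. A rise of 2 times was thus smaller than that of the median pair. The area was at least 2 times higher in TAZ-CAMTA1 in 52312 pairs (63.1%) and at least 2 times lower in 2775 (3.35%). At 4 times or more there were 24734 rises (29.8%) and 718 falls (0.866%). Sites ranked by area or by change in area, here and below, were named with chromosome 8 left out. The largest rises were regions where the EV list held only a sliver. At chr15:62745720-62748035 the TAZ-CAMTA1 peak had an area of 2533 and a width of 2316 bp, and the EV peak inside it an area of 20.8 and a width of 64 bp, a difference of 6.93 on the log2 scale. At chr16:18608531-18609419 the areas were 1822 and 21.2, and the summits 10.4 in TAZ-CAMTA1 and 3.65 in EV. The other pairs among the 5 largest rises lay at chr17:16918720-16920387, chr1:203432123-203433615 and chr9:78884510-78885724, with log2 differences of 6.70, 6.53 and 6.38. Because an EV peak of any strength within 1 kb kept a site out of the gained set, none of these 5 sites counted as gained.

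The largest falls were the mirror image, slivers in TAZ-CAMTA1 cells inside broad EV peaks. At chr21:10720904-10720968 the TAZ-CAMTA1 peak had an area of 27.1 and a width of 65 bp, and the EV peak an area of 2268 and a width of 2783 bp, a log2 difference of -6.39. The next falls were at chr4:190990396-190990576 (-5.89), chr5:2145726-2145825 (-5.22), chr2:91604834-91604886 (-5.15) and chr1:2614297-2614392 (-5.15). The falls of 4 times or more were placed unevenly. Chromosome 5 held 173 of them (24.1%) against 9.48% of all pairs, and chromosome 13 held 79 (11.0%) against 3.10%. Of the same falls, 204 (28.4%) lay within 5 Mb of a stretch of 2 Mb or more without a peak in any list, against 11.4% of all pairs.

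The gained peaks of largest area were broad and, in most cases, also open under other vectors. All positions are in hg19, and the ranks by area leave out chromosome 8, which had 128 gained peaks. The largest gained area, 4924 with a summit of 8.36, was at chr3:134071943-134074631, a peak of 2689 bp whose nearest EV peak was 1772 bp away. YAP5SA had an area of 3037 there and YAP-TFE3 of 1579, whereas CAMTA1 had 99.7, TAZ4SA 66.9, and TFE3 no peak. The strong peaks at this site were thus those of TAZ-CAMTA1, YAP5SA and YAP-TFE3.

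The gained peak of next largest area, 2785, was at chr22:40722936-40723807, 17586 bp from the nearest EV peak, with a summit of 10.4. It overlapped a peak in all 5 other lists, with summits of 9.93 in CAMTA1, 9.86 in YAP-TFE3, 6.21 in TFE3, 5.95 in TAZ4SA and 5.50 in YAP5SA. Here CAMTA1 and YAP-TFE3 came close to TAZ-CAMTA1, and the mutant full-length coactivators fell below the limit of 6. At chr1:112805716-112806963 the TAZ-CAMTA1 area was 2597 and the YAP-TFE3 area was larger, 3881, with 1212 in YAP5SA, 1169 in CAMTA1, 184 in TFE3 and 102 in TAZ4SA. The EV list had no peak within 4243 bp of that site.

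The highest summit of any gained peak, 11.3, was at chr12:53044037-53045029, with an area of 2115. It was followed there by summits of 9.36 in CAMTA1, 9.16 in YAP-TFE3, 6.71 in YAP5SA, 5.98 in TFE3 and 4.24 in TAZ4SA. A similar order was seen at chr17:43380113-43380895, where the TAZ-CAMTA1 area was 1925 and the areas were 1625 in YAP-TFE3, 1398 in CAMTA1, 548 in YAP5SA, 397 in TFE3 and 46.3 in TAZ4SA. At chr5:153955196-153956520, the last of the 5 largest gained peaks held by every other list, TAZ-CAMTA1 stood further above the rest. Its area of 2414 compared with 447 in YAP-TFE3, 349 in YAP5SA, 248 in CAMTA1 and in TFE3, and 50.9 in TAZ4SA.

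Of the 10 gained peaks of largest area, 3 were missing from the TAZ4SA list alone. These were chr5:168476841-168478102 (area 2286, summit 6.96, 1150 bp from an EV peak), chr1:48469508-48470282 (2209 and 9.58, 2408 bp) and chr1:33726731-33727592 (2037 and 8.50, 4020 bp). In each of them YAP-TFE3 had the next largest area, 1099, 1839 and 1239. The remaining one, chr14:53319439-53320514, had an area of 1943 in TAZ-CAMTA1 and 2588 in YAP-TFE3, with summits of 9.99 and 11.1. CAMTA1, TFE3 and TAZ4SA had areas of 192, 132 and 32.2 at that site, and YAP5SA had no peak. It was the site among the 10 where, by area, the fusions stood furthest above every other list.

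In none of the 5 other lists was there a peak at 39 gained sites (1.26%), against 16.02% of all TAZ-CAMTA1 peaks. From 6 to 7 it was 1.55% of gained and 0.130% of shared TAZ-CAMTA1 peaks. Shared peaks were chosen for recurring in EV, so this difference is partly set by the choice. The 39 had a median summit of 6.12. The largest was chr11:113064457-113065288, with an area of 1080, a summit of 7.58 and a width of 832 bp, 16412 bp from the nearest EV peak. The others of the 5 largest had areas of 806, 742, 663 and 589, at chr16:65901085-65901833, chr14:95655859-95656416, chr5:58617836-58618414 and chr18:57145717-57146229. Their summits lay between 6.19 and 6.51, close to the limit.

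Nearly all gained sites were therefore also called open in cells that expressed another vector. YAP-TFE3 peaks overlapped 2944 of the 3098 gained peaks (95.03%, 94.2 to 95.7%), against 70.8% of all TAZ-CAMTA1 peaks. CAMTA1 peaks overlapped 2847 (91.9%, 90.9 to 92.8%), against 66.7%. TFE3 peaks overlapped 2601 (84.0%, 82.6 to 85.2%), against 50.6%. YAP5SA peaks overlapped 2284 (73.7%, 72.1 to 75.2%), against 56.6%. TAZ4SA peaks overlapped 989 (31.9%, 30.3 to 33.6%), against 36.4%, which made TAZ4SA the one list that held a smaller share of gained sites than of all TAZ-CAMTA1 peaks. The TAZ4SA and TFE3 lists were of similar length, 152702 and 156421 peaks.

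All TAZ-CAMTA1 peaks include many weak ones, and peaks of like summit give a closer comparison. Among peaks with a summit from 6 to 7, each of the 5 lists held a smaller share of gained than of shared TAZ-CAMTA1 peaks. The shares for YAP-TFE3 were 93.8% of gained and 98.3% of shared peaks, a difference of -4.42 percentage points (-5.48 to -3.50). The difference was -7.54 points for CAMTA1 (-8.83 to -6.38), -13.2 for TFE3 (-14.8 to -11.6) and -13.8 for YAP5SA (-15.8 to -11.9). It was widest for TAZ4SA, 29.8% against 53.0%, or -23.2 points (-25.2 to -21.2). From 7 to 8 the difference for YAP-TFE3 was -0.62 points and its interval reached across 0 (-1.88 to 0.0129), while TAZ4SA still differed by -26.3 points (-30.3 to -22.2). Shared peaks were chosen for an overlap with an EV peak, and gained peaks for the lack of one. A lower share of gained peaks in each list is therefore partly set by the choice. No set of like summit free of that choice was used. Nor is the shared set one of sites without a vector effect.

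Sites under the limit recurred less often. Of the 61863 TAZ-CAMTA1 peaks that had no EV peak within 1 kb and a summit under 6, YAP-TFE3 held 50.8%, CAMTA1 42.7%, YAP5SA 31.3%, TFE3 21.2% and TAZ4SA 12.3%. Of the 1497 TAZ-CAMTA1 peaks of 6 or more that overlapped no EV peak but had one within 1 kb, the shares were 96.2% for YAP-TFE3, 93.2% for CAMTA1, 80.2% for TFE3, 72.4% for YAP5SA and 32.4% for TAZ4SA. These shares were close to those of the gained peaks, which lay beyond 1 kb.

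**Figure D3:**
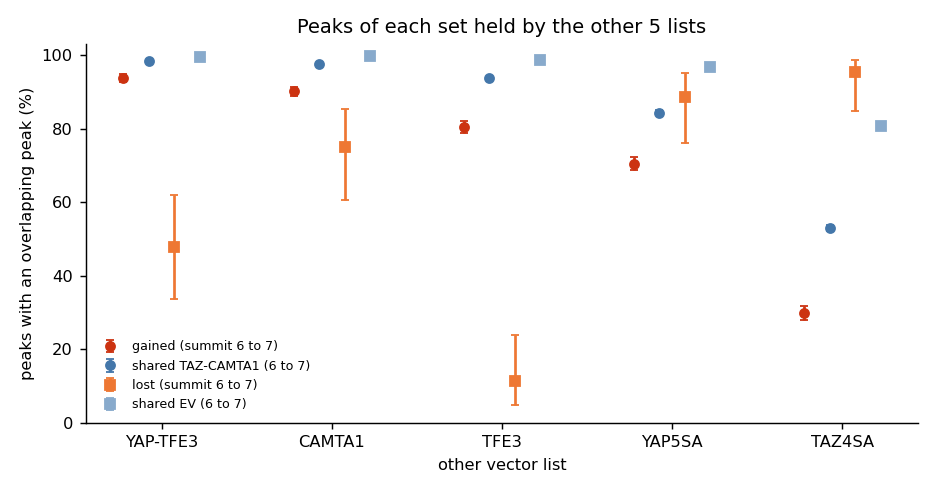
Percent of peaks (vertical axis, with 95% Wilson intervals) that overlap a peak of each of the 5 other vector lists, for gained and shared TAZ-CAMTA1 peaks and lost and shared EV peaks, all with a summit from 6 to 7. YAP-TFE3 holds 93.8% of the gained peaks and TAZ4SA 29.8%, while TAZ4SA holds 95.5% of the lost peaks and TFE3 11.4%.

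The gained peaks fell into a few patterns of other lists. The most frequent pattern, in 1120 peaks (36.2%), was a peak in every other list except TAZ4SA, against 10.8% of all TAZ-CAMTA1 peaks. A further 818 (26.4%) were in all 5 lists, which was no more than the 28.9% of all TAZ-CAMTA1 peaks. In YAP-TFE3, CAMTA1 and TFE3 only were 420 (13.6%), a pattern of 4.70% of all TAZ-CAMTA1 peaks. From 6 to 7 that pattern made up 14.4% of gained and 9.07% of shared TAZ-CAMTA1 peaks. The order of the 2 most frequent patterns was reversed among shared TAZ-CAMTA1 peaks with a summit from 6 to 7, of which 47.9% were in all 5 lists and 31.1% in all but TAZ4SA, against 23.6% and 33.7% of gained peaks in that range. YAP-TFE3 alone held 51 gained peaks (1.65%), against 6.73% of all TAZ-CAMTA1 peaks, and from 6 to 7 it held 2.10% of gained and 0.260% of shared ones. From 0 to 5 other lists the median summit of gained peaks was 6.12, 6.23, 6.33, 6.40, 6.53 and 6.65. The median area was 358, 429, 391, 443, 493 and 553, so the summit rose at each step and the area at all but one. This rise of the summit was not particular to gained peaks. Over all TAZ-CAMTA1 peaks the median summit went from 3.78 in 0 other lists to 9.07 in 5. From 6 to 7 it went from 6.12 to 6.41 for gained and from 6.30 to 6.53 for shared TAZ-CAMTA1 peaks.

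Presence in a list did not mean equal strength. Where a gained peak overlapped a YAP-TFE3 peak, the median YAP-TFE3 summit was 6.14, the median difference from TAZ-CAMTA1 was -0.47, and YAP-TFE3 was the higher at 36.2% of sites. CAMTA1 had a median summit of 5.54 and was the higher at 20.6% of sites, and YAP5SA had 5.17 and 19.5%. TFE3 had 4.58 and was the higher at 0.346% of its 2601 sites, although only YAP-TFE3 and CAMTA1 held a larger share of them. TAZ4SA had 4.62 and was the higher at 8.70% of its 989 sites. The number of gained sites at which the other list reached a summit of 6 was 1588 in YAP-TFE3, 1079 in CAMTA1, 704 in YAP5SA, 162 in TAZ4SA and 102 in TFE3. Of the gained sites that each list overlapped, these were 53.9%, 37.9%, 30.8%, 16.4% and 3.92%. Gained sites were chosen for a high TAZ-CAMTA1 value, so that a lower value in another list is partly set by the choice. Shared peaks with a TAZ-CAMTA1 summit from 6 to 7 were also chosen by that value, but only up to 7 and with an overlapping EV peak. At these shared peaks the median difference was 0.01 for YAP-TFE3, -0.42 for CAMTA1, -1.01 for YAP5SA, -1.49 for TAZ4SA and -1.60 for TFE3. In the same order, the other list reached 6 at 63.8%, 51.7%, 37.0%, 25.6% and 9.48% of the shared peaks it overlapped, each above its share at gained sites. The gained and shared sets are therefore not matched, either in differences or in these shares.

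The 49 lost peaks had a different profile in the other lists. TAZ4SA peaks overlapped 47 of them (95.9%, 86.3 to 98.9%), against 50.5% of all EV peaks. YAP5SA overlapped 44 (89.8%) against 71.1%, and CAMTA1 38 (77.6%) against 79.8%. YAP-TFE3 overlapped 25 (51.0%) against 81%, and TFE3 7 (14.3%, 7.10 to 26.7%) against 69.2%. Most of these 49 sites thus had a TAZ4SA and a YAP5SA peak, and few had a TFE3 peak. Intervals for lost peaks, here and below, treat the 49 as separate sites. Joined at 50 kb they made only 36 regions, so these intervals are too narrow where grouped peaks share a profile. The weaker EV sites did not recur in this way. Of the 11231 EV peaks with no TAZ-CAMTA1 peak within 1 kb and a summit under 6, YAP5SA held 21.7%, TAZ4SA 18.7%, CAMTA1 17.1%, YAP-TFE3 16.9% and TFE3 4.36%, and 56.4% were in no other list.

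Against shared EV peaks of like summit, TAZ4SA was the only list with a larger share of the lost peaks, and the order for YAP5SA turned. From 6 to 7, TAZ4SA held 95.5% of lost and 80.7% of shared EV peaks, a difference of 14.8 points (4.15 to 18.1). YAP5SA held 88.6% of lost and 96.9% of shared EV peaks, a difference of -8.24 points (-20.9 to -1.82). The difference was -24.7 for CAMTA1 (-39.2 to -14.3), -51.7 for YAP-TFE3 (-65.6 to -37.3) and -87.2 for TFE3 (-93.7 to -74.6). Where TAZ4SA held a lost site its median summit was 7.01, and it was higher than EV at 55.3% of sites and reached 6 at 33 of them. The median summit was 5.52 in YAP5SA, 4.62 in CAMTA1, 3.93 in YAP-TFE3 and 3.89 in TFE3. Shared EV peaks were chosen for an overlap with a TAZ-CAMTA1 peak, and lost peaks for the lack of one. Lower shares of lost peaks are thus again partly set by the choice. With the EV limit at 4.92, the 499 lost peaks kept the order of the lists, but every share was lower. It was 60.9% for TAZ4SA, 57.9% for YAP5SA, 50.5% for CAMTA1, 35.7% for YAP-TFE3 and 11.6% for TFE3. The shares of all EV peaks were 50.5%, 71.1%, 79.8%, 81.0% and 69.2% in the same order. Only TAZ4SA thus held more of these lost peaks than of all EV peaks. No other list held 77 of the 499 (15.4%), against 9.61% of all EV peaks.

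Many lost peaks lay beside stretches of the genome that no list covers. Stretches of 2 Mb or more without a peak in any of the 7 lists include the centromeres and other gaps of the assembly. Of the 49 lost peaks, 27 (55.1%, 41.3 to 68.1%) lay within 5 Mb of one, against 11.8% of EV peaks with a summit of 6 or more and 11.0% of all EV peaks. Gained peaks did not share this, with 329 (10.6%, 9.58 to 11.8%) so placed against 11.1% of TAZ-CAMTA1 peaks with a summit of 6 or more. Among the 499 lost peaks at the lower EV limit it was 142 (28.5%). Without the peaks so placed, 22 lost peaks remained. Sequence repeated around centromeres can draw reads from several places, and the part of that in the lost peaks was not tested.

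The lost peak of largest area, 1899 with a summit of 8.49, was at chr5:49415857-49416969, where TAZ4SA had an area of 2665, YAP5SA of 892, CAMTA1 of 357 and YAP-TFE3 of 53.0. At chr7:61240577-61241617 the EV area was 1123 and the TAZ4SA area 2916, and the nearest TAZ-CAMTA1 peak was 152114 bp away. Both are sites where TAZ4SA exceeded EV. Lost peaks with smaller areas at chr16:35279559-35279819 (719) and chr19:27778371-27778618 (714) had summits of 7.60 and 7.67 and overlapped a peak in all 5 other lists, with TAZ4SA summits of 6.55 and 6.82. The others among the 10 largest were chr1:142966549-142967736 (951), chr5:166002638-166003601 (782) and chr15:20133919-20134471 (777), besides 3 in a group on chromosome 1. A lone lost peak, chr14:19722534-19722709 with an area of 267 and a summit of 6.11, was in no other list. It was named after its values were seen.

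The group on chromosome 1 was the clearest regional difference in this direction. Between chr1:2592369 and 2627619, a span of 35251 bp, the EV list had 35 peaks, 6 of them lost, and the TAZ-CAMTA1 list had 3. YAP5SA had 35 peaks there, TAZ4SA 29, CAMTA1 23, YAP-TFE3 3 and TFE3 0. Its strongest lost peaks were chr1:2594956-2596895 (area 1570), chr1:2609986-2611338 (1242) and chr1:2626987-2627619 (895), with TAZ4SA areas of 3148, 4061 and 1072. The fall at chr1:2614297-2614392 among the shared pairs lay within the same span.

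A second group of 6 lost peaks, between chr2:90372764 and 90394520, showed the same division, with 18 EV, 22 YAP5SA, 17 TAZ4SA and 17 CAMTA1 peaks against 5 in YAP-TFE3, 2 in TAZ-CAMTA1 and 0 in TFE3. Between chr5:165977271 and 166003601, with 2 lost peaks, there were 21 EV, 31 YAP5SA, 28 TAZ4SA and 12 CAMTA1 peaks, against 5 in YAP-TFE3, 4 in TAZ-CAMTA1 and 2 in TFE3. Joined at 50 kb, the lost peaks made 2 more groups, each of 2 peaks. Between chr21:10778919 and 10798216 there were 22 EV, 25 TAZ4SA, 19 YAP5SA and 12 CAMTA1 peaks, against 8 in TAZ-CAMTA1, 7 in YAP-TFE3 and 5 in TFE3. Between chr19:27778371 and 27806831 there were 5 EV, 6 TAZ4SA, 4 YAP5SA and 5 CAMTA1 peaks, against 2 in YAP-TFE3, 1 in TFE3 and 0 in TAZ-CAMTA1. In each of the 5 spans EV, TAZ4SA, YAP5SA and CAMTA1 all had more peaks than any of TAZ-CAMTA1, YAP-TFE3 and TFE3. The spans were found from the EV and TAZ-CAMTA1 lists, so only the counts of the other 5 lists are independent of the choice.

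**Figure D4:**
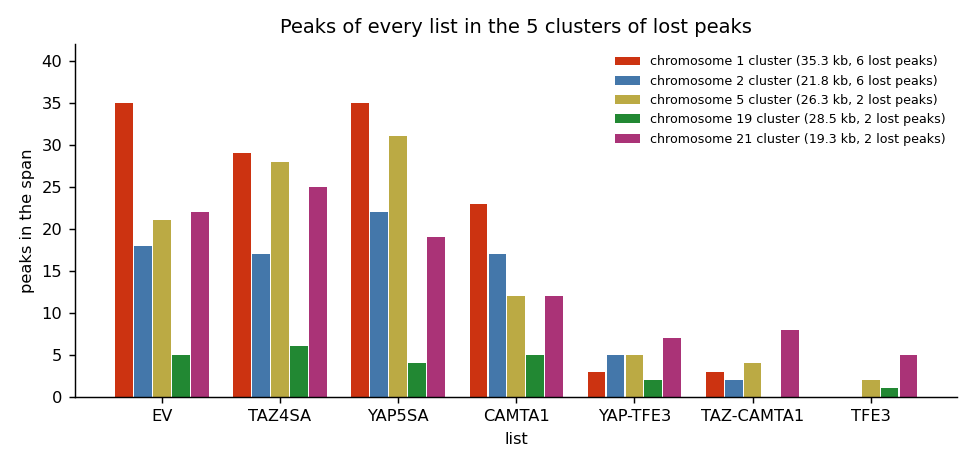
Number of peaks (vertical axis) that each of the 7 lists holds in the 5 spans with more than 1 lost peak when lost peaks are joined at 50 kb, on chromosomes 1, 2, 5, 19 and 21. EV, TAZ4SA, YAP5SA and CAMTA1 hold between 4 and 35 peaks per span, and YAP-TFE3, TAZ-CAMTA1 and TFE3 hold between 0 and 8, fewer within every span.

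Most gained peaks had no other gained peak close by. The nearest other gained peak was a median of 140806 bp away, and 293 gained peaks (9.46%) had one within 10 kb. Whether as many sites chosen otherwise would lie closer or farther apart was not tested. Any other TAZ-CAMTA1 peak lay within 10 kb of 88.6% of gained peaks, against 92.9% of all TAZ-CAMTA1 peaks. Within 1 kb the shares were 51.4% and 70.5%. The rule kept gained peaks more than 1 kb from EV peaks, and only 3.32% had a shared TAZ-CAMTA1 peak within 1 kb. The lower shares of gained peaks are therefore partly set by the rule. Joined at 10 kb, the 3098 peaks made 2945 regions, of which 2805 held 1 peak, 128 held 2, 11 held 3 and 1 held 4. That largest group lay between chr17:35336665 and 35338080, where TAZ-CAMTA1, CAMTA1 and TFE3 each had 4 peaks, YAP5SA and YAP-TFE3 3, and EV and TAZ4SA 0. Between chr2:46880452 and 46884496, 3 gained peaks with areas from 652 to 1625 lay in a span where CAMTA1 had 5 peaks, TFE3, YAP5SA and YAP-TFE3 4, TAZ4SA 3 and EV 0. Between chr11:66946428 and 66947988, TAZ-CAMTA1, CAMTA1, TFE3, YAP5SA and YAP-TFE3 each had 3 peaks, and TAZ4SA and EV had 0.

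Gained peaks lay near, though beyond 1 kb of, regions open in EV cells. The median distance to the nearest EV peak was 5882 bp (quartiles 2684 and 12945), 66.7% had one within 10 kb, and 29 were over 100 kb from any. The farthest was 1004150 bp away. To the nearest shared TAZ-CAMTA1 peak it was 6046 bp. The rule keeps gained peaks apart from EV peaks, so distances over 1 kb are the fair comparison. Among peaks with a summit from 6 to 7, gained peaks more than 1 kb from a shared peak were a median of 6478 bp from it, and shared peaks more than 1 kb from the next shared peak were 6266 bp from it. Beyond the first 1 kb, gained peaks were thus spaced from shared peaks much as shared peaks were from each other. Lost peaks were a median of 4279 bp from the nearest TAZ-CAMTA1 peak (1765 and 10617), and 11 of the 49 (22.4%) had another lost peak within 10 kb, all of them in the groups on chromosomes 1 and 2.

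In windows of 1 Mb, gained peaks occurred in 1365 of the 2627 windows with a TAZ-CAMTA1 peak of 6 or more, and 586 of these held 1. The fullest window, chr19:3000001-4000000, held 15 gained peaks of 86 peaks with a summit of 6 or more. It was followed by chr17:62000001-63000000 with 12 of 60, chr5:168000001-169000000 with 10 of 41, chr6:31000001-32000000 with 10 of 79, chr22:33000001-34000000 with 9 of 41 and chr19:14000001-15000000 with 9 of 59. There were 119 windows with 5 or more. The window on chromosome 5 also held the gained peak of area 2286 named above.

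Every autosome and the X chromosome had gained peaks, in unequal shares. As a percent of TAZ-CAMTA1 peaks with a summit of 6 or more, for which the whole list gives 4.14%, the share was highest on chromosome 22 (115 peaks, 7.33%, 6.14 to 8.73%), 17 (224, 6.52%, 5.75 to 7.40%) and 10 (154, 6.49%, 5.57 to 7.55%). It was lowest on chromosome 5 (133, 2.43%, 2.05 to 2.87%), 20 (87, 2.83%, 2.30 to 3.48%), 7 (140, 2.91%) and 11 (138, 2.99%). The intervals of chromosomes 22, 17 and 10 did not overlap those of 5, 20, 7 and 11. Chromosome 1 had the most by number, 299.

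The 4 chromosomes with the lowest gained shares were among those with the densest EV peaks. EV peaks numbered 105 per Mb on chromosome 5, 132 on 20, 81.1 on 7 and 86.4 on 11, and 29.8 on chromosome 10. Chromosomes 17 and 22 lay between, with 76.2 and 52.6, and chromosome 19 was an exception, with 83.0 EV peaks per Mb and a gained share of 5.47%. Across 23 chromosomes, EV peaks per Mb and the gained share had a Pearson's r of -0.45 and a Spearman's rho of -0.46, given as a description, since the points share their 2 lists and a denser EV list leaves less room beyond 1 kb of an EV peak. Without chromosomes 5 and 20, r was -0.24, so the relation rested in large part on them. It concerned the share of peaks and not the density of gained sites, since gained peaks per Mb had an r of 0.33 and a rho of 0.36 with EV peaks per Mb, and an r of 0.50 without those chromosomes. Chromosome 20, with its low share, had 1.38 gained peaks per Mb, and chromosome 10, with its high share, 1.14.

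The EV peaks that no TAZ-CAMTA1 peak overlapped were concentrated on few chromosomes. Of all 24651, 5344 (21.7%) lay on chromosome 5 and 2923 (11.9%) on chromosome 13. There, 71.8% and 58.5% of EV peaks were shared, against 85.6% over the whole list, and 94.5% on chromosome 10. Chromosome 13 was the one autosome with more EV than TAZ-CAMTA1 peaks, 7035 against 6258. Over the whole list, the 24602 EV peaks that were neither shared nor lost had a median summit of 3.98. Chromosome 13 had no lost peak and chromosome 5 had 5. The median summits of all EV peaks on these chromosomes were 4.33 and 4.44. Lost peaks were most frequent on chromosomes 1 and 2, with 7 each, and on 5 and 7, with 5 each.

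**Figure D5:**
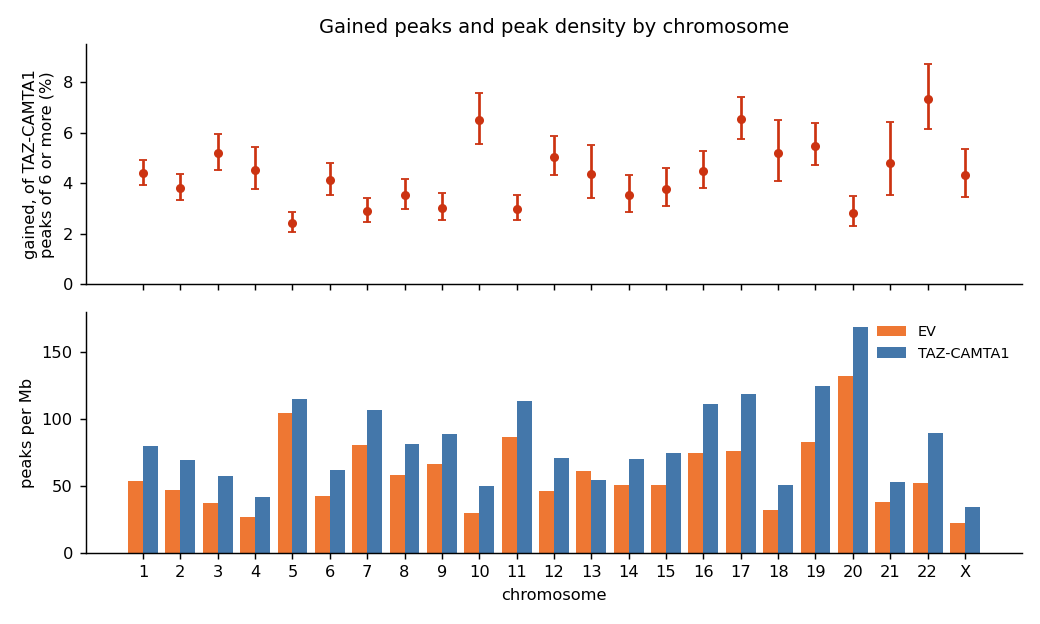
Top, gained peaks as a percent of TAZ-CAMTA1 peaks with a summit of 6 or more on each chromosome, with 95% Wilson intervals. Bottom, peaks per Mb in the EV and TAZ-CAMTA1 lists; chromosomes 5 and 20 have the densest EV lists (105 and 132 per Mb) and the lowest gained shares (2.43% and 2.83%), and on chromosome 13 the EV bar is the taller.

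The same rule gave very different numbers for the other vectors. Each was set against the same EV list, so these counts are not independent of each other. There were 7282 gained and 309 lost peaks for YAP5SA, 6127 and 77 for YAP-TFE3, 3622 and 28 for CAMTA1, 3098 and 49 for TAZ-CAMTA1, 1870 and 2123 for TAZ4SA, and 130 and 203 for TFE3. As a share of the list's peaks with a summit of 6 or more, gained peaks made up 10.5% in YAP5SA, 7.61% in YAP-TFE3, 4.92% in CAMTA1, 4.20% in TAZ4SA, 4.14% in TAZ-CAMTA1 and 0.274% in TFE3. The TAZ-CAMTA1 share was thus close to that of its full-length partner CAMTA1 and of TAZ4SA, while its 49 lost peaks lay between the 28 of CAMTA1 and the 77 of YAP-TFE3 and far below the 2123 of TAZ4SA. With 1 list per vector, none of these differences could be set against the spread between libraries.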

How the data were processed

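ATAC-seq libraries from 20 cultures of SW872 cells were grouped into 7 vectors by their titles. Per the study's methods, the authors trimmed reads with NGmerge, aligned them with BWA-MEM, sorted them with samtools and called peaks with Genrich set for ATAC-seq, after removal of PCR duplicates and with a blacklist of hg19 artefact regions, the mitochondrial genome and a set of named unplaced contigs excluded. Other unplaced contigs held 286 TAZ-CAMTA1 and 334 EV peaks, which were kept in the counts. The submitters' processing notes instead list Bowtie 0.12.2 and the build mm8. The lists reach base 249240671 of chromosome 1 and were read as hg19. The methods describe calling on each replicate, but 1 list per vector was used here, and how libraries were combined is not given in the sources used here. The depth of each list is unknown.

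From the deposited lists the signal column (area under the curve, column 7), the −log10 p of the summit (column 8) and the −log10 q (column 9, only as an alternative limit) were used. The deposited score and summit offset were not used. Peaks within a list did not overlap. Overlaps, gaps between peak edges and merged regions were computed with Python 3.11.15, numpy 2.4.6 and pandas 2.3.3, and were checked on simulated intervals against bedtools 2.31.1. Intervals came from statsmodels 0.14.6. No value was rescaled between lists.

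The sets, lists and comparisons were chosen with earlier results of these data known. Sites were named by a rule: the 10 gained and 10 lost peaks of largest area, the 5 gained of largest area in none and in all of the other 5 lists, and the 5 largest rises and falls in area among shared pairs, with chromosome 8 left out. Positions are 1-based. Alternatives changed the summit limit, the distance, the overlap, the list length, the chromosomes and the merging of peaks. The limits set by rank and the removal of peaks near peak-free stretches were added after seeing the data. Genes, sequences and motifs were not analysed here, because the genome at hand was of another build.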

Additional observations from a re-analysis of the deposited data

How the results depend on the processing

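Gained peaks outnumbered lost peaks under every alternative run, but both numbers and their ratio followed the limits. At a summit of 4, 5 and 8 or more there were 34132, 10865 and 129 gained and 5417, 408 and 1 lost peaks, with ratios of 6.30, 26.6 and 129. At a −log10 q of 2 there were 53141 and 7485, a ratio of 7.10. With no EV peak within 5 kb and 10 kb there were 1705 and 1031 gained peaks, and with no TAZ-CAMTA1 peak within those distances 21 and 14 lost peaks; requiring only no overlap gave 81 lost. With the 171102 strongest peaks of each list there were 118 lost by −log10 p and 96 by area, with ratios of 26.3 and 32.3. Chosen after seeing the data, the EV limit at the rank of the TAZ-CAMTA1 limit gave 499 lost (ratio 6.21), the TAZ-CAMTA1 limit at the rank of the EV limit gave 161 gained (ratio 3.29), and leaving out peaks near peak-free stretches gave 22 lost. The shared percent of TAZ-CAMTA1 and of EV peaks was 28.5% and 39.5% where the overlap had to span 50% of each peak, 56.6% and 97.8% with a summit of 6 or more in both lists, 55.6% and 87.0% with 4 or more, and 61.6% and 80.7% with equal numbers.

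The percent of gained peaks held by YAP-TFE3, CAMTA1, TFE3, YAP5SA and TAZ4SA was 95.8, 93.0, 85.7, 77.0 and 36.1 within 1 kb; 71.6, 63.1, 47.4, 42.2 and 12.4 at an overlap of 50%; 51.3, 34.8, 3.29, 22.7 and 5.23 with a summit of 6 or more in the other list; and 100, 98.4, 97.7, 87.6 and 41.9 for gained peaks of 8 or more. With 152702 peaks from each list it was 88.1, 82.4, 82.5 and 59.5 for the first 4. YAP-TFE3 was first in each, and TAZ4SA last in all but the summit limit, where TFE3 was. Gained peaks of 8 or more had a median width of 617 bp, and lost peaks of that summit gave no median. Within 5 kb and 25 kb, 6.97% and 16.5% of gained peaks had another, and 5.38% of merged regions had one within 10 kb. The cause of these shifts was not tested. The other 29 of 91 alternative values moved by less than their counting error or, for counts, less than 1.5 times. No paired analysis was possible because each vector is represented by 1 list without library columns, and leaving out libraries was not run for the same reason. Motif and transcription start alternatives were not run.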
